A study of Mus musculus with 15 samples.

Results

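The serpins are a family of proteins that share 1 fold, and the genes described here are the protein-coding genes of the deposited table whose symbol begins with Serpin, a clade letter from a to i and a number. This rule took 63 of the 56748 genes in the table, of which 21970 are protein-coding, and it used no measured value. 6 further rows with a Serpin name are pseudogenes and were not counted as members. RNA was sequenced from whole kidney and whole lung of male C57Bl/6 mice labelled as wild type (WT), with 3 libraries in each of 5 groups. In the kidney model, mice aged 10 to 12 weeks were given vehicle (WTK), or 1 injection of 200 mg/kg folic acid, after which they received either control IgG (IgGK) or a leptin-neutralizing antibody, LepAb (LepK), and tissue was taken at day 28. In the lung model, mice aged 12 weeks were given bleomycin at 1.5 units/kg into the trachea followed by IgG (IgGL) or LepAb (LepL), and tissue was taken at day 14. Both antibodies were given at 10 mg/kg. Vehicle-treated lung was not analysed here, so the lung comparison holds no uninjured group. The labels give vehicle alone for WTK and name no antibody for it. The study describes the lung libraries as separate mice. For the kidney libraries neither the labels nor the study's text read here says so, and their p-values measure the spread between these libraries.

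A serpin that inhibits proteases presents an exposed loop as bait. The protease cuts the loop, stays bound to it, and is dragged across the serpin and distorted, so that both molecules are spent. Members of the family hold coagulation, fibrinolysis, complement and the proteases of neutrophils and cytotoxic lymphocytes in check, and others bind hormones or help collagen to fold without inhibiting any protease. In injured tissue a well known member is HSP47, the product of *Serpinh1*, which escorts newly made collagen.

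Levels are given in CPM, counts scaled to the size of the library, after TMM, a correction for differences in library composition. Kidney and lung were scaled apart, so a level in kidney set beside a level in lung is a description. A gene was called higher or lower when the absolute log2 fold change was over 0.5 and the edgeR adjusted p was under 0.05. 32 members passed the filter on low counts in kidney and 35 in lung, 24 in both and 43 in either. A member that passed it through the 1 group in which it is high had to differ, so the counts below describe the members tested and not the family of 63. Of the 20 members tested in neither organ, 5 had no count in any library.

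Several cell type markers moved with the groups. In the kidney, the 6 markers of the proximal tubule summed to 14170 to 14956 CPM in WTK, 3439 to 4548 in IgGK and 6214 to 7969 in LepK, none of them at 0. The 8 macrophage and monocyte markers summed to 169 to 189 CPM in WTK, 1565 to 1956 in IgGK and 547 to 809.7 in LepK, and the 7 fibroblast markers to 161 to 210.1, 993 to 1136 and 401 to 641 CPM, again with none at 0. In lung, fibroblast markers summed to 5251 to 5973 CPM in IgGL and 2276 to 3114 in LepL, and the 4 alveolar type 2 markers to 4411 to 9254 and 14100.4 to 19987. The summed macrophage and monocyte markers ran from 3107 to 6293 CPM in IgGL and from 7710 to 7997 in LepL, but none of the 8 was called by edgeR and their median log2 fold change was -0.14. The neutrophil markers, 10 listed, summed to 2.58 to 2.85 CPM in WTK, 17.8 to 26.1 in IgGK and 7.93 to 11.5 in LepK, with 4 of 5 tested called higher in IgGK than in WTK and 4 of 5 lower in LepK than in IgGK. They summed to 222 to 589 CPM in IgGL and 118 to 143 in LepL, where 4 of 9 tested were lower. In kidney *Camp*, *Mpo* and *Ly6g* were at 0 in WTK, *Ngp*, *Camp* and *Ly6g* in IgGK, and *Mpo* in LepK. The 4 injured tubule markers, none at 0, summed to 10.5 to 16.7 CPM in WTK, 523 to 568 in IgGK and 224 to 316 in LepK, all 4 higher in IgGK than in WTK and all 4 lower in LepK than in IgGK. The part of these shifts in the results that follow was not tested, and in bulk tissue fewer cells of a type and less RNA per cell cannot be told apart.

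Libraries also stood apart from their own group. The 8 hepatocyte markers summed to 1006 CPM in LepK replicate 2, against 135 and 143 in the other LepK libraries, 87.7 to 172 in IgGK and 154 to 169.8 in WTK, where *Ahsg* and *Tat* were at 0. *Alb*, the albumin gene, stood at 697 CPM in LepK replicate 2 and at 74.0 in IgGK replicate 2, and between 2.31 and 27.8 in the other 7 kidney libraries. The 4 adrenal cortex markers summed to 504 and 618 CPM in IgGK replicates 1 and 2, to 14.3 in IgGK replicate 3, and to 5.40 to 7.64 in the WTK and LepK libraries, with *Cyp11b1* at 0 in WTK and *Hsd3b1* at 0 in LepK. The part of these transcripts in the serpin results was not tested. Results of single genes that rest on LepK replicate 2 are given with and without it.

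Clusters of near-copies make up much of the family, and the sequences before their start sites show how alike neighbours on chromosome 12 are. RefSeq (GRCm38.p6) gave windows of the 250 bases before the start for 54 of the 63 members. Members without an entry included *Serpina10*, *Serpina3k*, *Serpina3m*, *Serpina6*, *Serpina9*, *Serpinb13*, *Serpinb1a* and *Serping1*. The windows below belong to the antichymotrypsin-like genes called in kidney or lung for which an entry was given and to *Serpina1d*, the most abundant antitrypsin gene of the kidney. They are written 5′ to 3′ on the strand of the gene, and capitals mark a match to TTCNNNGAA, the letters that STAT factors bind, or to TGANTCA, each searched on both strands. N takes any base, so TGANTCA is a looser pattern than the letters that AP-1 binds.
Serpina3n (chr12:104406458-104406707, plus strand): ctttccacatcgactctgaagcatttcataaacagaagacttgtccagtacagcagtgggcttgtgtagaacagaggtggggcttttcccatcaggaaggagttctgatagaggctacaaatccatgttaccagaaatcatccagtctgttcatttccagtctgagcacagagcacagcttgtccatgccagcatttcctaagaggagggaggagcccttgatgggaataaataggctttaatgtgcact
Serpina3f (chr12:104214294-104214543, plus strand): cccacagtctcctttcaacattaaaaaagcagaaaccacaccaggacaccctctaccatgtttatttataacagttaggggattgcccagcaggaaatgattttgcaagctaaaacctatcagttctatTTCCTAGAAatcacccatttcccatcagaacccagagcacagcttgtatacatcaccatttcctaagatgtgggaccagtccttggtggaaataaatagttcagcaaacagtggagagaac
Serpina3g (chr12:104235897-104236146, plus strand): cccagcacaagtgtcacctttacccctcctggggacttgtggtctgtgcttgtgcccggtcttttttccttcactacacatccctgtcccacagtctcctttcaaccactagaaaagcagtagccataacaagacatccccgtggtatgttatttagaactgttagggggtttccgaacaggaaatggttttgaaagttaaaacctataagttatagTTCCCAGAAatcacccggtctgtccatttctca
Serpina3i (chr12:104262872-104263121, plus strand): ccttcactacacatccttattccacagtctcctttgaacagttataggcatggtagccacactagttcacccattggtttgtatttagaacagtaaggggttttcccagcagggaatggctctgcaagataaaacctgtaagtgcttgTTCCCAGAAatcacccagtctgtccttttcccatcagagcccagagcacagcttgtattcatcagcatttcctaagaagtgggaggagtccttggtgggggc
Serpina1d (chr12:103773634-103773883, minus strand): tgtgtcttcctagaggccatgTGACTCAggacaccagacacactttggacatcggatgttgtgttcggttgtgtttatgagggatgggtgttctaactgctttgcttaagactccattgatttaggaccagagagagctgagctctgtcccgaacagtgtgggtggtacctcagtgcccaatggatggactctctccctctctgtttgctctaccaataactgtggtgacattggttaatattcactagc
The windows of *Serpina3f*, *Serpina3g* and *Serpina3i* each held TTCNNNGAA once, and that of *Serpina3n* held neither motif. In a global alignment the *Serpina3n* window was identical to that of *Serpina3c* at 90.5% of aligned positions, to that of *Serpina3f* at 61.9%, to that of *Serpina3i* at 60.1% and to that of *Serpina3g* at 44.9%. Whole windows set by each annotated start were aligned, so a shift between start sites lowers the identity. The windows of *Serpina3f* and *Serpina3g* gave 43%, although both hold a similar stretch around TTCNNNGAA at different distances from the start. Over all members, 10 of 63 windows (8 genes) held TTCNNNGAA, against 7.02% of the 32851 windows of all genes. TGANTCA was found in 12 of 63 windows (11 genes), *Serpina1a*, *Serpina1b*, *Serpina1c* and *Serpina1d* among them, against 6.75% of all windows. In *Serpinb2*, *Serpinb5*, *Serpinb10*, *Serpinb11* and *Serpinb12* the matches had A or T at N. No window shown held both motifs. Members of a cluster share descent and are not independent, and a match is a run of letters, not a bound site.

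The family as a whole had a different make-up in each group, taken from the authors' FPKM values, which allow for gene length and were compared within a library. *Serpinf2*, which encodes α2-antiplasmin, the inhibitor of plasmin, held 45.7% ± 3.79 (SD, n = 3) of the summed serpin FPKM in WTK. The antitrypsin-like genes held 26.3% ± 2.45 there, most of it from *Serpina1d* (19.4% ± 1.9). In IgGK the largest shares belonged to *Serping1* (18.3% ± 1.39), *Serpina1d* (14.9% ± 0.560) and *Serpinh1* (14.5% ± 1.35), with *Serpinf2* at 13.4% ± 3.53. In LepK they belonged to *Serpinf2* (21.8% ± 6.001) and *Serpina1d* (21.7% ± 0.655), shares that lie within each other's spread. The lung held almost no antitrypsin transcripts, 0.011% ± 0.012 in IgGL and 0.022% ± 0.020 in LepL. There the antichymotrypsin-like genes led with 41.5% ± 5.43 in IgGL, of which *Serpina3n* alone made up 36.7% ± 4.93, and held 17.4% ± 4.44 in LepL, where *Serpinh1* (22.6% ± 1.18) and *Serping1* (21.6% ± 1.43) came first with overlapping spreads. Summed over members, the family totalled, in normalized CPM, 1055 ± 30.7 for WTK, 1482 ± 9.93 for IgGK and 1408 ± 112 for LepK, and 3706 ± 379.9 for IgGL and 2299 ± 204 for LepL.

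**Figure D1:**
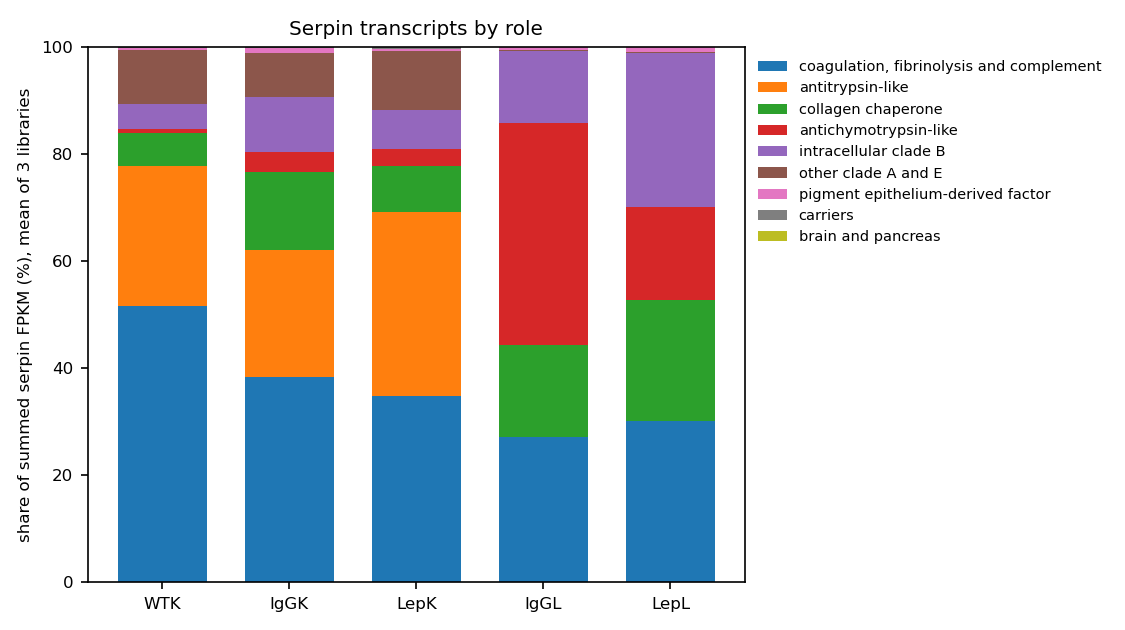
Stacked bars give the mean share (%) of the summed serpin FPKM held by each role in the 5 groups, 3 libraries each. The coagulation, fibrinolysis and complement serpins hold 51.6% in WTK, antitrypsin-like genes are visible in kidney alone, and antichymotrypsin-like genes take 41.5% in IgGL and 17.4% in LepL.

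In kidney, IgGK was set against WTK to compare injured kidney given folic acid and IgG with vehicle, where folic acid and IgG cannot be told apart, and LepK against IgGK to show what the antibody changed. Of the 32 members tested, 18 were called higher and 1 lower in IgGK than in WTK, where 37.3% of all genes tested were called, 21.7% higher and 15.6% lower. The median log2 fold change of the members was 1.55, against 0.04 over all genes. LepK against IgGK gave 2 members higher and 9 lower, against 4.38% and 5.99% of all genes (10.4% in all), with a median of -0.46 against -0.01. In LepK against WTK 20 members were higher and 1 lower, against 15.2% and 7.3% of all genes (22.5% in all), with a median of 1.47 against 0.03. Separation of the groups was common in this study and is given below as a description. Over all genes tested, the 3 libraries of one group did not overlap with those of the other in 62.6% for IgGK against WTK (32.5% higher and 30.1% lower), in 37.4% for LepK against IgGK (17.8% higher and 19.5% lower) and in 50.2% for LepK against WTK (25.6% higher and 24.6% lower). These comparisons share libraries, so their values are set side by side below and are not independent of each other. Without IgGK replicate 2 and LepK replicate 2, the pair richest in *Alb* transcripts, 1 member was called higher in LepK than in IgGK.

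**Figure D2:**
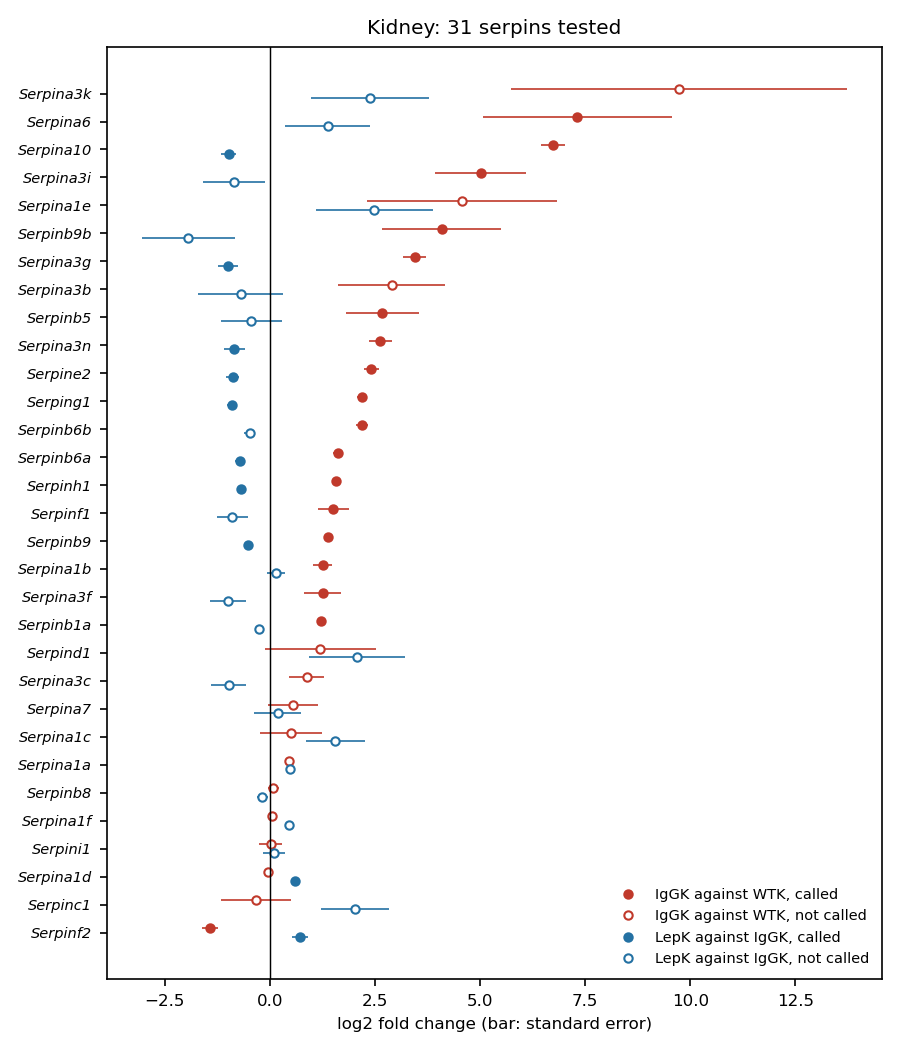
Points give the log2 fold change of each of 31 serpins tested in kidney with its standard error, red for IgGK against WTK and blue for LepK against IgGK, filled where called. Red points lie right of 0 for most members and blue points lie left of it for the members called lower. The estimates of Serpina3k and Serpina6 rest on a WTK group with no counts and depend on the prior count of the fit, and both contrasts use the IgGK libraries.

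Of the 9 serpins of coagulation, fibrinolysis and complement, 7 were tested in kidney. Among them 4 were higher and 1 lower in IgGK than in WTK, against 21.7% and 15.6% of all genes. In LepK 1 was higher and 4 lower than in IgGK, against 4.38% and 5.99% of all genes. *Serpina10* (chromosome 12, 103581045 to 103597703, positions as in the deposited table, GRCm39) encodes the protein Z-dependent inhibitor of factor Xa. It stood at 0.415, 0.671 and 0.541 CPM in the WTK libraries, 54.4, 64.1 and 56.2 in IgGK and 19.8, 30.9 and 38.3 in LepK. The 3 groups did not overlap. The rise in IgGK was 106-fold, a log2 fold change of 6.73 ± 0.28 (SE, edgeR adjusted p = 1.13e-08), and LepK lay at 0.509 times the IgGK level, with -0.98 ± 0.18 (SE, edgeR adjusted p = 0.00263). In lung *Serpina10* stayed low, at 3.46, 1.31 and 0.831 CPM in IgGL and 5.39, 1.37 and 2.19 in LepL, with overlapping groups.

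*Serpine2* encodes protease nexin-1, an inhibitor of thrombin and of plasminogen activators at the cell surface. It rose from 24.1, 19.6 and 26.3 CPM in WTK to 125, 131 and 119 in IgGK and stood at 48.00, 77.3 and 78.8 in LepK, without overlap. Its log2 fold changes were 2.42 ± 0.17 (SE, edgeR adjusted p = 2.1e-07) for IgGK against WTK and -0.88 ± 0.16 (SE, edgeR adjusted p = 0.00236) for LepK against IgGK.

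*Serping1* encodes the C1 inhibitor, which holds back the proteases that start the classical complement pathway and plasma kallikrein. WTK libraries held 53.2, 46.5 and 60.8 CPM, IgGK libraries 237, 264 and 234 and LepK libraries 112, 151 and 134. The change was 4.58-fold in IgGK (log2 2.20 ± 0.12 SE, edgeR adjusted p = 4.54e-08), and LepK lay at 0.539 times IgGK (log2 -0.89 ± 0.11 SE, edgeR adjusted p = 0.000419).

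*Serpinf2* went the other way. The levels of this antiplasmin gene were 542, 451 and 457 CPM in WTK, 208, 124 and 209 in IgGK and 368, 251 and 272 in LepK. IgGK was 0.373 times WTK (log2 -1.42 ± 0.19 SE, edgeR adjusted p = 3.49e-05), LepK was 1.65 times IgGK (log2 0.72 ± 0.19 SE, edgeR adjusted p = 0.0164), and LepK stayed below WTK at 0.614 times its level (log2 -0.70 ± 0.18 SE, edgeR adjusted p = 0.00938). The call of LepK against IgGK was lost without LepK replicate 1, the highest of the LepK libraries (edgeR adjusted p = 0.0696). The proximal tubule markers given above moved in the same directions, and their part in this result was not tested.

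Of the other members with this role, *Serpinc1* (antithrombin) and *Serpind1* (heparin cofactor II), made mainly by the liver, were not called in kidney. *Serpinc1* stood at 1.71, 15.7 and 1.29 CPM in the LepK libraries and *Serpind1* at 0.329, 6.81 and 0.0738, in both the highest in LepK replicate 2. *Serpinb2*, which encodes PAI-2, had at most 8 counts in a kidney library.

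Antichymotrypsin-like genes form the Serpina3 cluster on chromosome 12. Several of them encode secreted inhibitors of proteases such as cathepsin G and elastase, and *Serpina3n* is known as an acute-phase gene. Of the 10 members of this role 7 were tested in kidney. 4 were higher in IgGK than in WTK (21.7% of all genes) and 2 lower in LepK than in IgGK (5.99% of all genes). *Serpina3n* (chromosome 12, 104372988 to 104380588) stood at 1.79, 2.13 and 3.101 CPM in WTK, 12.9, 17.2 and 13.7 in IgGK and 5.17, 8.98 and 10.3 in LepK. Its groups did not overlap, and IgGK lay 6.196-fold above WTK (log2 2.63 ± 0.27 SE, edgeR adjusted p = 4.41e-06). LepK lay at 0.559 times IgGK (log2 -0.84 ± 0.24 SE, edgeR adjusted p = 0.0294), a call that was lost without LepK replicate 1, IgGK replicate 2 or IgGK replicate 3 (edgeR adjusted p up to 0.12). *Serpina3g* rose from 1.58, 1.698 and 2.13 CPM in WTK to 16.4, 27.3 and 15.4 in IgGK. It stood at 8.23, 13.2 and 8.42 CPM in LepK, a log2 difference to IgGK of -0.98 ± 0.23 (SE, edgeR adjusted p = 0.0112), which lost its call without IgGK replicate 2 (edgeR adjusted p = 0.0567).

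*Serpina3f* and *Serpina3i* were rare in kidney. *Serpina3f* was called higher in IgGK, at 2.77, 4.14 and 1.71 CPM against 1.33, 0.632 and 1.62 in WTK (log2 1.26 ± 0.44 SE, edgeR adjusted p = 0.0282), and the call was lost when any of 4 single libraries was left out. *Serpina3i* had 97 counts over the IgGK libraries and 2 over the WTK libraries, a ratio of 37.4 with a 95% counting interval from 10.1 to 314. *Serpina3k*, which encodes a kallikrein-binding serpin made by the liver, had no count in WTK, 0.561, 6.12 and 4.104 CPM in IgGK and 0, 54.9 and 1.85 in LepK. Taking a floor of 3 counts over the WTK group, it was at least 96.0-fold higher in IgGK, which was not called (edgeR adjusted p = 0.0621) but was in 6 alternatives, DESeq2 and scaling by library size alone among them, and at least 497-fold higher in LepK, which was called (edgeR adjusted p = 0.0158) although 1 LepK library held no count. LepK replicate 2 held 1637 of the 1687 LepK counts, and without it the bound was at least 22.4-fold (edgeR adjusted p = 0.0493).

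The antitrypsin-like genes *Serpina1a* to *Serpina1e* encode paralogs of α1-antitrypsin, the inhibitor of neutrophil elastase. All 5 were tested in kidney. 1 was higher in IgGK than in WTK, near the share of all genes (21.7%), and 1 was higher in LepK than in IgGK (4.38% of all genes). *Serpina1d* stood at 113, 131 and 125 CPM in WTK, 126, 118 and 115 in IgGK and 167, 209 and 166 in LepK. WTK and IgGK overlapped, and LepK lay above both, at 1.51 times IgGK (log2 0.59 ± 0.09 SE, edgeR adjusted p = 0.00118). Without LepK replicate 2 the log2 difference was 0.48, under the limit of 0.5, and the call was also lost with scaling by library size alone. *Serpina1a* gave 3 separate groups, at 40.1, 45.5 and 41.5 CPM in WTK, 59.1, 55.3 and 60.2 in IgGK and 78.6, 85.5 and 81.1 in LepK. Its steps of 0.46 ± 0.07 (SE, edgeR adjusted p = 0.000114) and 0.49 ± 0.07 (SE, edgeR adjusted p = 0.00065) on the log2 scale each fell short of 0.5, and LepK against WTK, at 0.95 ± 0.07 (SE, edgeR adjusted p = 2.17e-06), was called. *Serpina1b* was 2.396-fold higher in IgGK than in WTK (log2 1.26 ± 0.22 SE, edgeR adjusted p = 0.000361), from 14.7, 16.7 and 18.5 to 44.3, 34.5 and 40.8 CPM, and LepK libraries at 28.01, 61.8 and 42.5 overlapped with IgGK.

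*Serpina1c* and *Serpina1e* were highest in the library richest in hepatocyte transcripts. *Serpina1e* stood at 0.0831, 0.07897 and 0.144 CPM in WTK, 0.0989, 5.23 and 2.25 in IgGK and 0, 42.3 and 0.665 in LepK, and *Serpina1c* at 1.78, 13.6 and 1.62 in LepK. The other 2 LepK libraries stood below the highest IgGK library in both genes. Both were called higher in LepK than in WTK with that library (edgeR adjusted p = 0.0188 for *Serpina1e* and 0.0401 for *Serpina1c*). Without it, both calls were lost and the log2 fold changes were 1.61 for *Serpina1e* and 0.34 for *Serpina1c*, and both were also lost when any 1 WTK library was left out. *Serpina6*, the corticosteroid-binding globulin, had no count in WTK, 69 counts over the IgGK libraries and 157 over those of LepK, of which 141 came from LepK replicate 2. It was at least 17.8-fold higher in IgGK and at least 46.2-fold higher in LepK than in WTK, both called by edgeR (adjusted p = 0.0185 and 0.00742), and DESeq2 gave no adjusted p for it. The call in IgGK was lost without WTK replicate 3 (edgeR adjusted p = 0.0502). Without LepK replicate 2, *Serpina6* was at least 7.16-fold higher in LepK than in WTK (edgeR adjusted p = 0.0165).

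**Figure D3:**
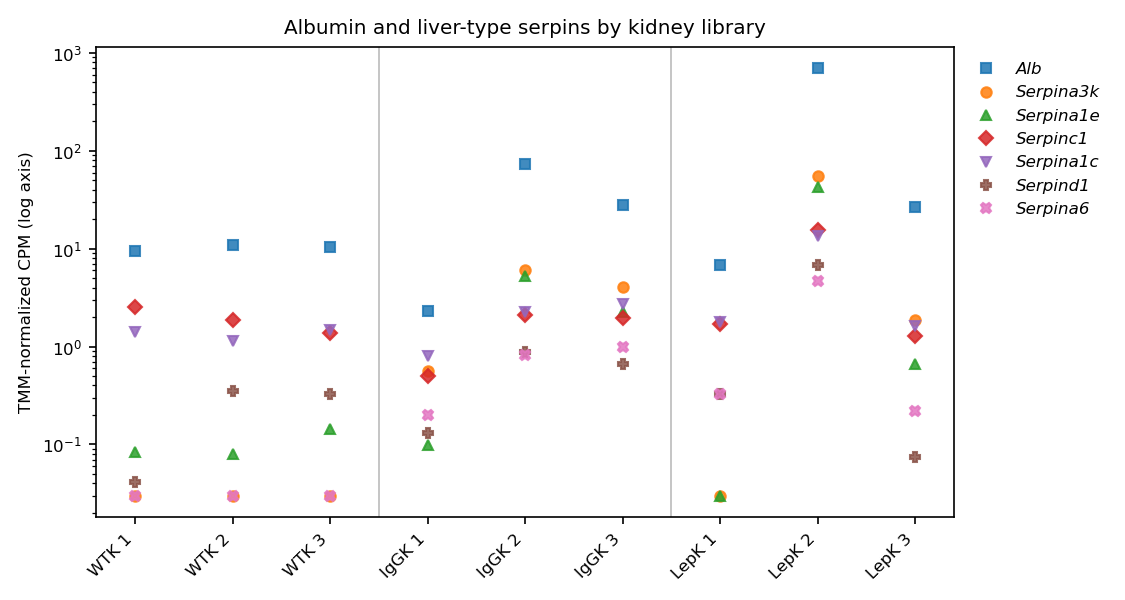
Points give TMM-normalized CPM on a log axis for Alb and 6 serpins made mainly by the liver in each of the 9 kidney libraries, with 0 drawn at 0.03. In LepK replicate 2, Alb reaches 697 CPM, Serpina3k 54.9 and Serpina1e 42.3, and the 6 serpins have their highest kidney level in that library.

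Reads of near-copies can be split wrongly by a counting program. Of the 100-base windows in its transcripts (GENCODE M21), *Serpina1c* shared 58.5% with another gene, *Serpina1a* 42.8%, *Serpina1d* 29.3%, *Serpina1b* 14.8% and *Serpina1e* 14.4%, while *Serpina3k* shared 4.85%, *Serpina3g* 3.49% and *Serpina3n* 0.204%. *Serpina1b* and *Serpina1d* also overlap in the annotation, as do *Serpina3k* and *Serpina3m*, and the levels of single antitrypsin genes are therefore uncertain. With the counts of *Serpina1a* to *Serpina1e* summed, the cluster totalled 183 ± 13.03 CPM for WTK, 222 ± 7.63 for IgGK and 326 ± 74.5 for LepK (SD, n = 3). LepK against IgGK gave a log2 fold change of 0.55 ± 0.12 (SE, edgeR adjusted p = 0.0084) for that sum, and IgGK against WTK, at 0.28 ± 0.12, was not called. The sum was not refitted without LepK replicate 2. The summed Serpina3 cluster was higher in IgGK than in WTK, at 2.75 ± 0.499 (SE, edgeR adjusted p = 0.00046), and not called in LepK against IgGK, at -0.12 ± 0.44 (SE, edgeR adjusted p = 0.888), a sum that holds the 54.9 CPM of *Serpina3k* in LepK replicate 2.

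*Serpinh1*, the collagen chaperone HSP47, and *Serpinf1*, the pigment epithelium-derived factor, inhibit no protease. *Serpinh1* stood at 63.6, 72.3 and 68.9 CPM in WTK, 205, 222 and 186 in IgGK and 109.6, 142 and 130.0 in LepK. The 3 groups were separate, with log2 fold changes of 1.58 ± 0.10 (SE, edgeR adjusted p = 1.23e-07) for IgGK against WTK and -0.68 ± 0.10 (SE, edgeR adjusted p = 0.000743) for LepK against IgGK. The fibroblast markers moved the same way, 7 of 7 higher in IgGK than in WTK and 6 of 7 lower in LepK than in IgGK, and their part in the *Serpinh1* result was not tested. *Serpinf1* rose from 4.94, 2.53 and 6.17 to 11.3, 14.6 and 13.2 CPM in IgGK (log2 1.52 ± 0.38 SE, edgeR adjusted p = 0.00463), and its LepK libraries, at 3.32, 11.4 and 6.39 CPM, overlapped with both groups. Without LepK replicate 2 it was called lower in LepK than in IgGK (log2 -1.43, edgeR adjusted p = 0.011).

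Clade B serpins act inside cells, where several guard against the cell's own granule proteases. Of 27 members 7 were tested in kidney. 6 were higher in IgGK than in WTK (21.7% of all genes) and 2 lower in LepK than in IgGK (5.99% of all genes). *Serpinb6a* gave 28.2, 25.94 and 26.8 CPM in WTK, 78.2, 91.4 and 79.6 in IgGK and 43.5, 46.97 and 62.7 in LepK. LepK lay at 0.614 times IgGK (log2 -0.70 ± 0.12 SE, edgeR adjusted p = 0.0016). The gene overlaps *Ripk1* and *Nqo2* on the other strand, and the libraries did not keep strand. *Serpinb9*, an inhibitor of granzyme B, gave 23.5, 21.2 and 24.5 CPM in WTK, 55.6, 60.96 and 63.5 in IgGK and 42.4, 38.89 and 45.4 in LepK, without overlap. Its log2 difference between LepK and IgGK, -0.51 ± 0.08 (SE, edgeR adjusted p = 0.00141), only just passed the limit and fell under it when LepK replicate 2, IgGK replicate 2 or IgGK replicate 3 was left out.

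*Serpinb6b* and *Serpinb1a* rose in IgGK and were not called in LepK against IgGK. *Serpinb6b* went from 5.65, 5.92 and 7.39 to 27.9, 29.7 and 29.3 CPM (log2 2.19 ± 0.13 SE, edgeR adjusted p = 9.24e-08), with LepK at 17.3, 23.5 and 21.5, a log2 difference of -0.48 ± 0.12 (SE, edgeR adjusted p = 0.0158) that fell short of the 0.5 limit. *Serpinb1a*, whose product inhibits neutrophil elastase and cathepsin G, went from 11.5, 10.7 and 10.4 to 25.3, 23.9 and 26.1 CPM (log2 1.21 ± 0.09 SE, edgeR adjusted p = 3.05e-07) and stood at 20.2, 20.3 and 22.1 in LepK. *Serpinb5* and *Serpinb9b*, each under 1 CPM in every kidney library, were called higher in IgGK, and each call was lost in 3 or more of the 6 fits that left out 1 library. The macrophage and monocyte markers were higher in IgGK than in WTK in 8 of 8 genes and lower in LepK than in IgGK in 7 of 8, and their part in the clade B levels was not tested.

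The last member called in kidney was *Serpina1f*, which is named beside the antitrypsins but was kept out of their group. It was abundant in kidney, at 135, 149 and 150.3 CPM in WTK, 164, 128 and 158 in IgGK and 234, 195 and 193 in LepK, and had at most 1 count in a lung library. LepK against WTK was called at a log2 fold change of 0.52 ± 0.10 (SE, edgeR adjusted p = 0.00167), and LepK against IgGK, at 0.47 ± 0.10 (SE, edgeR adjusted p = 0.00719), was not. The call against WTK was lost without LepK replicate 1 or WTK replicate 1. *Serpini1*, *Serpinb8*, *Serpina7* and *Serpina3c* were tested and not called in the kidney comparisons, with log2 fold changes between -0.98 and 0.88, and *Serpina3b*, under 1 CPM in every kidney library, was not called either.

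In bleomycin-injured lung, LepL was set against IgGL to show what LepAb changed there. 1 member was called higher and 7 lower among the 35 tested, against 1.78% and 2.36% of all genes (4.14% in all), and the median log2 fold change of the members was -0.36 against 0.00 over all genes. The lung groups did not overlap in 33.3% of all genes tested, 16% with LepL higher and 17.3% with LepL lower. *Serpina3n* was the serpin with the highest FPKM in IgGL. It stood at 752, 1193 and 1123 CPM in IgGL and 251, 316 and 160.0 in LepL, with no overlap. The LepL level was 0.237 times that of IgGL, a log2 fold change of -2.08 ± 0.27 (SE, edgeR adjusted p = 0.0327). Across organs, which were scaled apart, its IgGL libraries at 752 CPM or more stand against kidney levels of at most 17.2.

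3 other genes of the Serpina3 cluster were called lower in LepL. *Serpina3m*, hardly present in kidney, stood at 30.6, 68.6 and 65.5 CPM in IgGL and 5.52, 13.6 and 5.16 in LepL (log2 -2.76 ± 0.43 SE, edgeR adjusted p = 0.0327). *Serpina3f* went from 23.4, 31.8 and 24.6 to 9.93, 10.95 and 6.32 CPM (log2 -1.55 ± 0.22 SE, edgeR adjusted p = 0.0327) and *Serpina3i* from 8.95, 11.8 and 9.38 to 3.69, 3.68 and 3.02 (log2 -1.53 ± 0.21 SE, edgeR adjusted p = 0.0327). In all 3 genes the groups did not overlap. *Serpina3g* and *Serpina3c*, at log2 fold changes of -0.71 ± 0.21 (SE, edgeR adjusted p = 0.0752) and -0.60 ± 0.24 (SE, edgeR adjusted p = 0.151), were not called and their groups overlapped. The summed cluster fell from 1150.1 ± 262 CPM in IgGL to 285 ± 87.4 in LepL (log2 -2.01 ± 0.26 SE, edgeR adjusted p = 0.0331), most of it *Serpina3n*.

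*Serpine2* was lower in LepL too. It stood at 487, 593 and 546 CPM in IgGL and 343, 334 and 243 in LepL, at 0.566 times the IgGL level (log2 -0.82 ± 0.16 SE, edgeR adjusted p = 0.0354). Among clade B, *Serpinb9b* fell from 11.6, 24.8 and 33.8 to 7.84, 7.51 and 4.31 CPM (log2 -1.84 ± 0.38 SE, edgeR adjusted p = 0.0395), and *Serpinb1a* rose from 26.8, 22.6 and 25.6 to 37.5, 33.4 and 40.9 (log2 0.58 ± 0.12 SE, edgeR adjusted p = 0.042). For each of these 7 genes the call held without IgGL replicate 1 and was lost when any other single lung library was left out, with edgeR adjusted p up to 0.207 and no change of direction. In the fits that lost the calls, at most 18 genes were called higher and 4 lower over all genes. Leaving out a library brings the fit from 4 residual degrees of freedom to 3.

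**Figure D4:**
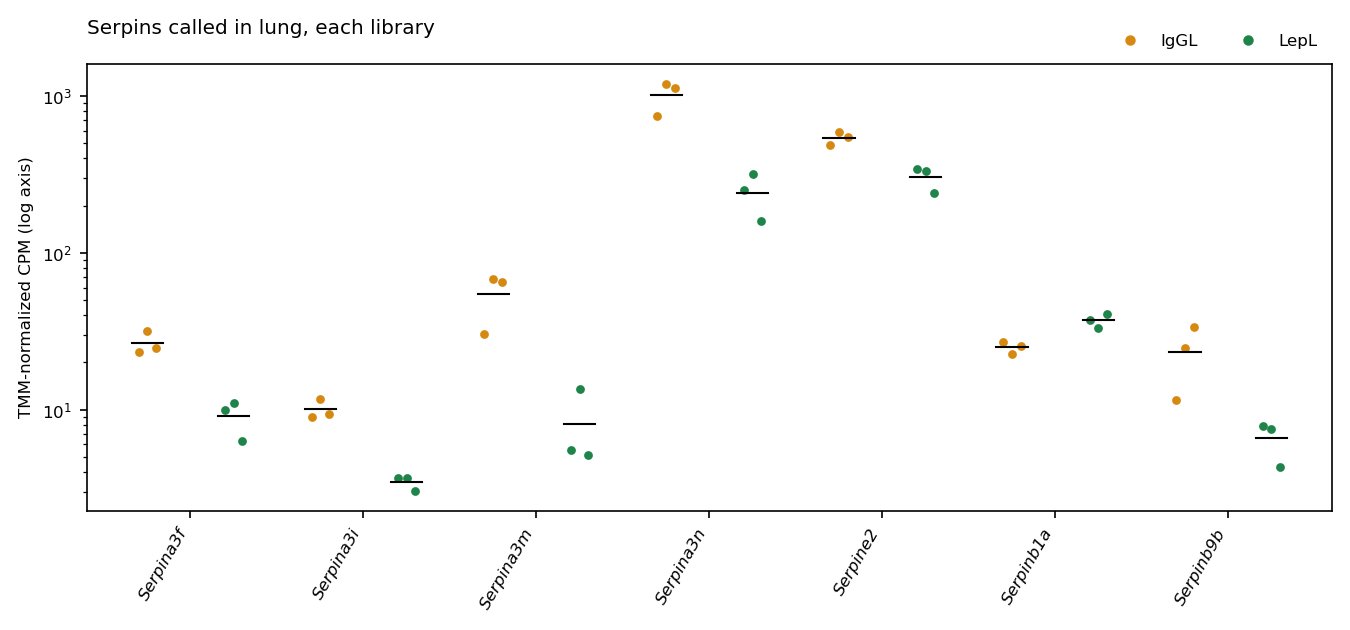
Each point is 1 lung library, in TMM-normalized CPM on a log axis, for 7 serpins called in LepL against IgGL, with black lines at the group means. In each gene the 3 IgGL and the 3 LepL libraries do not overlap, and Serpinb1a is the 1 gene with LepL above IgGL.

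*Serping1* and *Serpinh1*, both called lower in LepK than in IgGK, were not called in lung. *Serping1* stood at 513, 510.2 and 448 CPM in IgGL and 398, 409.9 and 377 in LepL (log2 -0.31 ± 0.11 SE, edgeR adjusted p = 0.115), and *Serpinh1* at 557, 545 and 571 CPM in IgGL and 485, 419.9 and 401 in LepL (log2 -0.36 ± 0.12 SE, edgeR adjusted p = 0.0941), in both with every LepL library below every IgGL library. *Serpinb12* (1.302, 1.31 and 3.92 CPM in IgGL and 5.55, 5.29 and 10.4 in LepL) and *Serpinb3a* (0, 0.611 and 1.26 CPM in IgGL and 1.73, 5.35 and 4.76 in LepL) had every LepL library above every IgGL library and were not called, at edgeR adjusted p = 0.069 and 0.102. *Serpinb2* spread from 1.66 to 17.2 CPM within IgGL and was not called. Also tested and not called, with a mean of at least 1 CPM in a lung group, were *Serpina7*, *Serpina9*, *Serpina10*, *Serpinb1b*, *Serpinb1c*, *Serpinb5*, *Serpinb6a*, *Serpinb6b*, *Serpinb8*, *Serpinb9*, *Serpinb10*, *Serpind1*, *Serpinf1* and *Serpini1*, with log2 fold changes between -0.75 and 1.50. Among these, every LepL library lay above every IgGL library in *Serpinb9*, *Serpinb6b*, *Serpina9* and *Serpinb1b*, and below in *Serpina7*, *Serpinb8* and *Serpini1*. *Serpinb9* ran from 155 to 215 CPM in IgGL and from 228 to 301 in LepL. *Serpinb6b* ran from 99.4 to 148 CPM in IgGL and from 155 to 221 in LepL. *Serpina3k*, *Serpinb3c*, *Serpinb6c*, *Serpinb11*, *Serpinc1* and *Serpinf2* were tested in lung at means under 1 CPM and not called.

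*Serpina3n* and *Serpine2* were called lower with LepAb in both organs. Whether the antibody effect differed between the organs was tested in a single fit of the 12 libraries of injured tissue, as the effect in kidney minus that in lung. Organ, injury and day of collection differ at once in this test and cannot be told apart. Among 42 members tested, 1 was called higher and 5 lower at an edgeR adjusted p under 0.05, against 3.51% and 3.62% of all genes (7.12% in all). *Serpinb9* (-0.91 ± 0.19 SE, edgeR adjusted p = 0.0192) and *Serpinb1a* (-0.81 ± 0.15 SE, edgeR adjusted p = 0.0139) were lower in this difference, and both kept the call in 12 of 12 fits that left out 1 library. *Serpinb9* stood at 60.03 ± 4.02 CPM in IgGK and 42.2 ± 3.28 in LepK, and at 187 ± 30.1 in IgGL and 253 ± 41.8 in LepL (SD, n = 3). *Serpinb6b* (-1.003 ± 0.22 SE, edgeR adjusted p = 0.0229) and *Serping1* (-0.55 ± 0.15 SE, edgeR adjusted p = 0.0452) were lower as well and kept the call in 8 and 2 of those 12 fits.

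*Serpinb12* (-5.23 ± 1.30 SE, edgeR adjusted p = 0.0327) was lower and *Serpina3m* (5.20 ± 1.22 SE, edgeR adjusted p = 0.0267) higher, and each kept the call in 6 of 12 fits. Neither passed the filter on low counts in the kidney fit, and both entered this fit through their lung counts. *Serpinb12* had 2 to 18 counts per library in IgGK and 0 to 2 in LepK. *Serpina3m* had 3 to 4 in IgGK and 2 to 47 in LepK, so the size of both differences is uncertain. Without LepK replicate 2, which held 47 counts of *Serpina3m*, its call was lost. *Serpina3n*, at 1.26 ± 0.38 (SE, edgeR adjusted p = 0.0603), missed the threshold and passed it without IgGL replicate 1, without LepL replicate 2 and without the filter on low counts (log2 1.25 to 1.50, edgeR adjusted p from 1.04e-05 to 0.0482). *Serpine2* was not called, at -0.03 ± 0.24 (SE, edgeR adjusted p = 0.976). *Serpinh1*, at a difference of -0.29, was not called either.

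The proteases, cofactors and receptors that serpins meet were taken as a list of 67 genes. In kidney 58 were tested, of which 30 were higher and 9 lower in IgGK than in WTK, against 21.7% and 15.6% of all genes. 5 were higher and 18 lower in LepK than in IgGK, against 4.38% and 5.99%. In lung 2 were higher and 5 lower in LepL than in IgGL among 57 tested, against 1.78% and 2.36%. Of the genes that start complement, 6 of 7 were higher in IgGK than in WTK (21.7% of all genes) and 6 of 7 lower in LepK than in IgGK (5.99%). *C1qa*, for a chain of C1q, which macrophages make, stood at 22.6, 23.3 and 27.4 CPM in WTK, 183, 245 and 195 in IgGK and 78.4, 111 and 112 in LepK (log2 -1.05 ± 0.14 SE, edgeR adjusted p = 0.000536 for LepK against IgGK). *C1s1*, a protease that the C1 inhibitor blocks, averaged 17.6 ± 1.95 CPM in WTK against 73.4 ± 3.87 for IgGK and 45.1 ± 10.3 for LepK (SD, n = 3). *Masp2*, a protease of the lectin pathway, was the 1 gene of the 7 that went the other way, at means of 0.942, 0.334 and 1.25 CPM for WTK, IgGK and LepK.

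In fibrinolysis 5 of 9 genes were higher in IgGK than in WTK and 4 lower in LepK than in IgGK, against the same 21.7% and 5.99%. *Plaur*, the urokinase receptor, averaged 4.71 ± 0.935, 13.1 ± 1.05 and 7.92 ± 0.297 CPM in WTK, IgGK and LepK (log2 -0.73 ± 0.15 SE, edgeR adjusted p = 0.00595 for LepK against IgGK). *Lrp1*, the receptor that clears complexes of serpins with proteases, was lower with LepAb in kidney (log2 -0.82 ± 0.11 SE, edgeR adjusted p = 0.000593) and in lung, from 859, 1269 and 1206 to 568, 599 and 475 CPM (log2 -1.02 ± 0.17 SE, edgeR adjusted p = 0.0327). Among cysteine proteases, *Ctss*, for cathepsin S, averaged 16.03 ± 3.22, 213 ± 37.6 and 74.4 ± 14.5 CPM in the same order and was lower in LepK than in IgGK (log2 -1.52 ± 0.17 SE, edgeR adjusted p = 0.000174). Of 5 contact and kallikrein genes tested, 3 were lower and 1 higher in IgGK than in WTK (15.6% and 21.7% of all genes) and 3 higher in LepK than in IgGK (4.38%), with *Klk1*, tissue kallikrein, at 1401, 1652 and 1524 CPM in WTK, 539.6, 638 and 624 in IgGK and 1423, 1293 and 1153 in LepK (log2 1.103 ± 0.10 SE, edgeR adjusted p = 6.42e-05 for LepK against IgGK). *F13a1*, for the A chain of factor XIII, which crosslinks fibrin, fell in lung from 52.99, 142 and 171 to 28.4, 32.6 and 27.9 CPM (log2 -2.04 ± 0.36 SE, edgeR adjusted p = 0.0327), and *Gzma*, granzyme A, rose from 4.18, 1.58 and 2.19 to 10.1, 9.46 and 16.3 (log2 2.17 ± 0.38 SE, edgeR adjusted p = 0.0327).

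The 20 members tested in neither organ had at most 18 counts in any library. *Serpina3a*, *Serpinb3d*, *Serpinb9d*, *Serpinb9e* and *Serpinb9g* had none, which allows up to 3 counts a library. *Serpina11*, *Serpina12*, *Serpina16*, *Serpinb3b* and *Serpinb7* reached 11 to 18 counts in 1 or more libraries. *Serpina3j*, *Serpina5*, *Serpinb6d*, *Serpinb6e*, *Serpinb9c*, *Serpinb9f*, *Serpinb9h*, *Serpinb13*, *Serpine3* and *Serpini2* reached at most 6 counts.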

How the data were processed

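Poly(A) RNA libraries of whole kidney (9) and lung (6), non-directional, were sequenced by Novogene. Per the labels, each of the 15 libraries belongs to 1 of 5 groups, and a single batch is named for all of them. The authors deposited whole-number read counts per gene, and FPKM values (per kilobase of gene length) made from them. The submitters' processing notes name GRCm39/mm39 and DESeq2, and the aligner and counter are not given in the sources used here. The authors' own group means, fold changes and p-values in the table were not used. FPKM served for the order of genes and for shares within a library alone, since each library's FPKM equals counts per gene length times a factor that does not follow the total count of the table. The scale of the FPKM values against that total, 1 where they match, was 0.966 to 0.981 in WTK and 0.686 to 0.849 elsewhere.

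Total counts ran from 25913969 to 38924788 per library, so that 1 count is 0.0257 to 0.0386 CPM before scaling. Intervals and floors cover counting error only. No 2 libraries of a group agreed within sampling noise (chi-square of at least 7.15 per gene). The deposited counts were tested with edgeR 4.0.16 in R 4.3.3 (filterByExpr with minimum count 10 and minimum total 15, TMM, quasi-likelihood F test), with 6 residual degrees of freedom in kidney and 4 in lung, and Benjamini-Hochberg adjustment over all genes tested. Replicate numbers are shared by the groups, and same-numbered libraries were not shown to pair. DESeq2 1.42.0, other scalings, filters and thresholds, summed paralogs and left-out libraries were alternatives. The scripts were tested on simulated data.

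The members and lists were chosen with earlier results of these data known. Values per library are given for most members called in any comparison with a mean of at least 1 CPM in a group. Some that were rare in kidney are given there as summed counts or as an upper limit. Genes of the list of 67 could be named when called at that level. A line in the sample descriptions that names columns disagrees with the titles and was not used, and the column of LepL replicate 3 carries a suffix the others lack. Gene positions are those of the deposited table, and promoter windows are from RefSeq on GRCm38.p6, a different build, so that the 2 sets of positions cannot be compared. 1 member is counted among the members and is not reported here by itself.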

Additional observations from a re-analysis of the deposited data

Results flagged for a closer look

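Among 42 serpins tested, 6 were called for a difference between organs in the effect of LepAb, against 7.12% of all genes. The value tested was the log2 effect in kidney minus that in lung in an edgeR fit of 12 libraries. *Serpinb9* and *Serpinb1a* kept the call in 12 of 12 fits that left out 1 library. *Serpinb6b* kept it in 8, *Serpina3m* and *Serpinb12* in 6 each and *Serping1* in 2. *Serpina3m* stood out at 5.20 and *Serpinb12* at -5.23, but neither passed the filter on low counts in the kidney fit. Both entered the fit of 12 libraries through their lung counts, so these sizes rest on few kidney counts and are uncertain. *Serpinb6b* came to -1.003, with kidney means of 28.96 CPM in IgGK and 20.8 in LepK against lung means of 125 in IgGL and 183 in LepL. *Serpinb9* came to -0.91 and *Serpinb1a* to -0.81, each with a lower mean in LepK than in IgGK and a higher mean in LepL than in IgGL. *Serping1* came to -0.55, with a lower mean under LepAb in both organs.

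A transcribed pseudogene of the antichymotrypsin cluster, *Serpina3h*, lies outside the rule for members and gave a signal above WTK. Its mean was 1.54 CPM in IgGK against 0.0721 in WTK, at a log2 fold change of 4.26 (edgeR adjusted p = 0.00087), and 13.7 CPM in IgGL against 5.36 in LepL, which was not called (edgeR adjusted p = 0.0709).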

How the results depend on the processing

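In LepK against IgGK the count of serpins called higher, 2 as reported, was 1 with scaling by library size alone, 7 without a filter on low counts, 4 without a fold limit, 0 with the log2 limit raised to 1 and 1 without IgGK replicate 2 and LepK replicate 2, a setting chosen after seeing the data, and that of serpins called lower, 9 as reported, was 0 at the limit of 1. Over all genes that comparison called 858 higher and 1174 lower as reported, and 408 and 2185 with library size alone. The all-gene counts were 1018 and 1463 without the filter, 2150 and 1875 without a fold limit, and 175 and 428 at the limit of 1. Without the 2 libraries they were 774 and 866. In LepK against WTK the 20 called higher became 13 at the limit of 1 and 12 with paralogs summed (20 units tested), and the 1 called lower became 0 at the limit of 1 and 0 with library size alone. Over all genes its 2984 higher and 1431 lower became 1839 and 302 at the limit of 1. With library size alone they became 4782 and 512. In lung the 1 called higher became 5 without the filter, 3 with DESeq2, 2 in the fit of 12 libraries and 0 at the limit of 1, and the 7 called lower became 3 with paralogs summed (23 units tested). In that sum the 4 called genes of the Serpina3 cluster count as 1 unit, which was called lower. The summed Serpinb9 family, which holds *Serpinb9b*, was not called. Over all genes in lung, 349 higher and 463 lower became 1515 and 1173 without the filter and 1230 and 1095 with DESeq2. The fit of 12 libraries gave 1069 and 998, the limit of 1 gave 192 and 229, and summed paralogs gave 349 and 459. The organ difference went from 1 higher and 5 lower to 4 and 8 without the filter, and over all genes from 754 and 777 to 1096 and 1563. Library size alone shifted the median log2 fold change over all genes from 0.04 to 0.48 (IgGK against WTK), from -0.01 to -0.19 (LepK against IgGK) and from 0.03 to 0.29 (LepK against WTK). No called serpin changed direction in any setting run, and over all alternatives 907 values of called serpins kept their call and 140 lost it. These counts include settings that change only the fold limit of the reported fit. Such settings cannot change a direction, and dropping the limit cannot lose a call. The cause of these changes was not tested beyond what each setting removes.

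Leaving out each library in turn gave 16 to 17 higher and 1 lower for IgGK against WTK, 2 to 4 higher and 6 to 11 lower for LepK against IgGK, 17 to 22 higher and 1 lower for LepK against WTK, 0 to 4 and 0 to 9 in LepL against IgGL, and 0 to 3 and 2 to 6 for the organ difference. In lung the count was 0 in both directions in 5 of the 6 fits, the exception being the fit without IgGL replicate 1. Over all genes, the lung fits called 0 higher and 0 lower without LepL replicate 2, LepL replicate 3 or IgGL replicate 2. They called 18 and 4 without LepL replicate 1, 3 and 1 without IgGL replicate 3, and 1937 and 1602 without IgGL replicate 1. Over all genes, the fits of IgGK against WTK called 3813 to 4130 higher and 2778 to 3069 lower. Those of LepK against IgGK called 594 to 992 and 695 to 1271. For LepK against WTK the counts were 2512 to 3185 and 1135 to 1766. The organ difference ran from 141 to 1853 higher and from 195 to 1910 lower over all genes. Not called as reported but called with 1 library left out were *Serpina1a* (WTK replicate 2) in IgGK against WTK, *Serpina1a* (LepK replicate 1, IgGK replicate 1 or 3), *Serpina1f* (LepK replicate 2 or 3, IgGK replicate 1 or 3), *Serpinb6b* (LepK replicate 2 or 3) and *Serpinb9b* (LepK replicate 3) in LepK against IgGK, *Serpinf1* (LepK replicate 1) and *Serpinb5* (WTK replicate 3) in LepK against WTK, *Serpinb6b* and *Serpinb9* (IgGL replicate 1) in lung, and *Serpinf1* (LepK replicate 2), *Serpina10* (IgGL replicate 1) and *Serpinb6a* (LepK or IgGL replicate 3) for the organ difference.

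With the replicate number as a block, the lung calls went from 1 higher and 7 lower to 0 and 0, while the kidney counts changed by at most 2, to 20 higher and 1 lower for IgGK against WTK, 2 higher and 9 lower for LepK against IgGK, and 19 higher and 1 lower for LepK against WTK. Over all genes the block left 1 higher and 3 lower in lung, against 349 and 463 as reported. In kidney it gave 4208 and 3027, 882 and 1237, and 2946 and 1454 over all genes, in the same order. Same-numbered libraries did not deviate together in every pair (correlations of -0.048, 0.116 and -0.097 in lung, and from -0.049 to 0.227 in kidney), so the numbers are not taken as pairs. DESeq2 gave no adjusted p for *Serpina6*, which was not counted as a lost call.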
